A study of Homo sapiens with 4 samples.

Results

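Glycolysis, lactate and hypoxia genes were examined in SHMT2-knockdown and control CRC cells. The set held 40 genes, chosen by symbol: glucose uptake, glycolysis, lactate production and export, the pyruvate dehydrogenase kinases, the glucose-responsive genes TXNIP and ARRDC4, and genes of the hypoxia response. A member needed at least 10 counts in 2 or more of the 4 libraries, and all 40 met this among the 26364 gene rows deposited. SW480 and SW620 are human CRC cell lines, and each gave a knockdown library and a control library. SHMT2 is the mitochondrial enzyme that turns serine into glycine. The knockdown came from a lentiviral shRNA that doxycycline switches on. The study calls its controls control shRNA cells, the sample labels say only control, and whether the controls received doxycycline was given in neither. The methods give a dose and a length of doxycycline treatment for the knockdown, but not for the sequenced cells in particular, and neither the hairpin that was sequenced nor the oxygen level of the cultures was found in the sources used here. Since each line and condition is 1 library, any difference within a line has no replicate check.

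The libraries held 5530129 to 13774288 counts. Knockdown over control, the ratio of these totals was 0.671 for SW480 and 2.49 for SW620. Levels are given as CPM, counts scaled by TMM to a common library size. Changes within a line are log2 ratios of knockdown over control with a prior count of 2, and their SE covers counting error only. Over both lines, the quasi-likelihood test of edgeR was used in a model with cell line and treatment, and p was adjusted by Benjamini-Hochberg over 14024 genes. SHMT2 itself was at 277 CPM in control and 30.9 CPM in knockdown SW480 cells, and at 688 and 47.6 CPM in SW620 cells. The transcript left was 11.2% and 6.92% of control. The epithelial genes EPCAM, KRT8 and KRT18 were abundant in all 4 libraries. Of the intestinal markers, CDX2 had 54 to 180 counts, KRT20, CDH17 and LGALS4 had 0 to 25, and VIL1 had at most 2 counts in SW480 against 2029 or more in SW620. The summed CPM of 6 fibroblast markers was 20.4 to 30.4, nearly all from COL1A1 and, in SW620, LUM, while DCN, COL1A2 and COL3A1 had 0 or 1 count each. The sum was at most 1.28 for leukocyte and at most 2.26 for endothelial markers.

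Glycolysis splits glucose into pyruvate, and lactate dehydrogenase turns pyruvate into lactate when it does not enter the mitochondrion. Low oxygen stabilizes HIF1A, which acts with ARNT and switches on glucose transporters, most glycolytic enzymes, PDK1 and genes such as CA9, VEGFA and NDRG1, whereas the prolyl hydroxylases EGLN1 and EGLN3 mark HIF1A for degradation. TXNIP and ARRDC4 are alpha-arrestins that limit glucose uptake, and both are switched on by the glucose-sensing factor MLXIP with its partner MLX through paired boxes in their promoters.

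Promoters are shown for TXNIP, CA9, BNIP3 and ADM. TXNIP and CA9 were the members highest in SW620 relative to SW480, and BNIP3 and ADM those most separated in the other direction. The 250 bases before the RefSeq start were read on GRCh38.p14 for the 34 members with an entry. SLC2A3, PFKFB2, SLC16A1, BNIP3L, VEGFA and NDRG1 were not matched. In TXNIP, on the minus strand at chr1:145996580-145996829, capitals mark a pair of CACGNG boxes with 5 bases between them, 88 bases before the start. This pair, searched on both strands, was found in TXNIP and P4HA1 among the members and in 16 of 35116 promoters (0.0456%). ARRDC4 held 0 such pairs and 1 CACGTG in this window.
TXNIP: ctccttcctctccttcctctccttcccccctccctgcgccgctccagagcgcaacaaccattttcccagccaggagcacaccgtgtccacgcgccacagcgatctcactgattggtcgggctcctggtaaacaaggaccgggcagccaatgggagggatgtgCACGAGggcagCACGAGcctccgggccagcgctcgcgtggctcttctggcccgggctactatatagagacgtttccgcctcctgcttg

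In the next 3 promoters capitals mark ACGTG or GCGTG on either strand, the core letters of the hypoxia response element, which overlap CACGTG where that occurs. At least 1 such match stood in 21 of the 34 matched members (61.8%) and in 15172 of 35116 promoters (43.2%). CACGTG stood in 5 of the 34 members (14.7%) and in 6.34% of all promoters. CA9 lies at chr9:35673678-35673927 and ADM at chr11:10304823-10305072, both on the plus strand with 1 match each. BNIP3 lies at chr10:131981924-131982173 on the minus strand with 6 matches, its CACGTG being counted on each strand. EGLN3, also among the largest rises in SW620, held 0 matches in its window and is not printed.
CA9: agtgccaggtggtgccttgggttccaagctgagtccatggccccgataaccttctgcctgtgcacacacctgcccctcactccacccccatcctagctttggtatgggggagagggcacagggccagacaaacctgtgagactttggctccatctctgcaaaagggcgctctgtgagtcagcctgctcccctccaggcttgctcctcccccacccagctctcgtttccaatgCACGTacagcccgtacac
BNIP3: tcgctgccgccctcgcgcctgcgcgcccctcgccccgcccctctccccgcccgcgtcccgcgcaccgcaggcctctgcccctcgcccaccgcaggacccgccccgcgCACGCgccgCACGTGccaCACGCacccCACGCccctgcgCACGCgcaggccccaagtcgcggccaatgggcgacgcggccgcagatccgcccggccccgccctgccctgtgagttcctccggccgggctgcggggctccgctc
ADM: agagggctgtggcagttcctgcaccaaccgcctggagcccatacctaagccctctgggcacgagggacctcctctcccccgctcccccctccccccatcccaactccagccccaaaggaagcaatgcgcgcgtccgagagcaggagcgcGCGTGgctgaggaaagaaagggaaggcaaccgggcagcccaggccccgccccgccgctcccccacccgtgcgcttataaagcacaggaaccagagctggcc

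Over both lines, few of these genes were called after SHMT2 knockdown, in a model where opposite changes in the 2 lines cancel at least in part. BNIP3L, a mitophagy receptor of the outer mitochondrial membrane, rose, and TXNIP fell in SW620, the only line with counts of it, so that its call compares 1 pair of libraries. These were the 2 of 40 members with an adjusted p under 0.05, and the TXNIP call was lost under every alternative that gave an adjusted p. Of all genes tested, 0.492% were called higher and 1.17% lower, so 1 member in each direction is to be read against these shares. At an unadjusted P of 0.05 or less, SLC2A1, SLC2A3, PFKM, CA9, BNIP3L and NDRG1 were higher and SLC16A1 and TXNIP lower. That was 6 and 2 members, where 4.15% and 4.91% of all genes passed. Of the 6, SLC2A1, SLC2A3, CA9 and NDRG1 were lower in SW480, by log2 -0.13, -0.83, -0.16 and -0.50, with 10 and 6 counts for CA9. Their fitted rise was thus that of SW620. In a model that left out the cell line, 0 members passed, but so did 0 of all 14024 genes, SHMT2 included. At an unadjusted P of 0.05 or less 0 members and 18 of 14024 genes passed there. The DESeq2 Wald test called 0 members as well, with 2 at the unadjusted limit, which 241 of 14024 genes passed. It gave no adjusted p for 20 members, BNIP3L and TXNIP among them. The median log2 change of the 40 members over both lines was 0.046, and that of all genes tested was 0.01.

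Within the lines, most members were lower after knockdown in SW480 and higher in SW620. In SW480 cells 29 of the 40 members (72.5%) were lower after knockdown by any amount, against 47.8% of all genes tested, with a median log2 of -0.14. In SW620 cells 33 members (82.5%) were higher, against 50% of all genes, with a median of 0.24. The medians of all genes were at 0.00 in each line. Both at once, by any amount, held for 24 members (60%) and for 22.5% of all genes. Lower in SW480 and higher in SW620, each by more than 1.96 counting SE, were 13 members (32.5%), namely SLC2A1, SLC2A3, GPI, PFKP, ALDOA, PFKFB3, PGK1, ENO1, LDHA, SLC16A3, PDK1, VEGFA and NDRG1. Of all genes tested 2.5% did so. In the other direction PDK2 was the 1 member, against 1.3% of all genes. These shares are not like for like, since counting SE shrinks as counts rise and abundant genes pass at smaller changes. GPI, for example, passed with a log2 of -0.12 in SW480. No comparison with genes matched for level was made. The opposite directions in the lines were noticed before these counts were made, the members share the 4 libraries, and no test of the difference between lines is possible with 1 library each. The depth of the knockdown library relative to its control also differed between the lines in this direction. With every library thinned to 5530129 counts, 29 members were lower in SW480 and 34 higher in SW620, with medians of -0.14 and 0.24. Thinning keeps each gene's expected share of the counts, so it cannot show what a difference in depth or library making did.

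**Figure D1:**
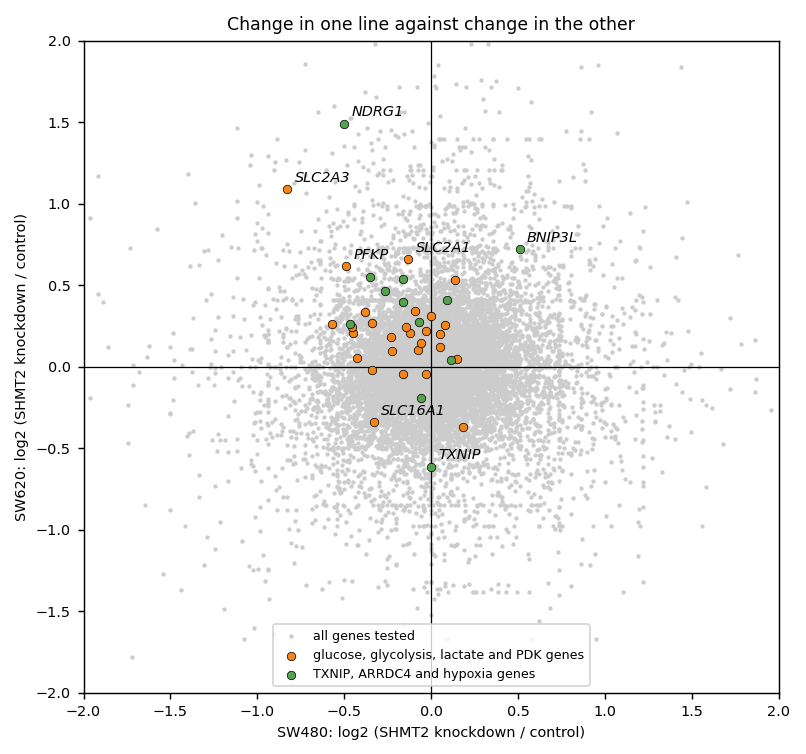
Knockdown change in SW480 (horizontal axis) against knockdown change in SW620 (vertical axis), both as log2 of knockdown over control, with a point for each gene inside the axes. Grey points are all genes tested and colored points the 40 members, 24 of which (60%, against 22.5% of all genes) lie to the upper left, lower in SW480 and higher in SW620.

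Glucose uptake was examined first. SLC2A1 encodes GLUT1, the transporter that most cells use for basal uptake. It was at 514 CPM in control and 469 CPM in knockdown SW480 cells, and at 589 CPM in control and 931 CPM in knockdown SW620 cells. The lines therefore went apart, and the 2 SW620 libraries were the highest and the second highest. The log2 change was -0.13 (counting SE 0.033) in SW480 and 0.66 (counting SE 0.0285) in SW620. Over both lines it was 0.27 (SE 0.0987, adjusted p = 0.203 by edgeR), which did not pass. SLC2A3 encodes GLUT3, a transporter of higher affinity. It had 48 and 18 counts in control and knockdown SW480 cells, and was at 16.9 and 36.1 CPM in SW620, where 92 and 486 counts stood behind it. Its log2 change was -0.83 (counting SE 0.399) in SW480, the lowest of the 40, and 1.09 (counting SE 0.164) in SW620. SLC2A3 was the 1 member past 1.5-fold lower in SW480, as were 4% of all genes.

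Upper glycolysis, from hexokinase to triose phosphate isomerase, holds 9 members. In SW620 cells all 9 were higher after knockdown, and in SW480 cells 6 of the 9 were lower, while none was called over both lines. ALDOA, the main aldolase, had the highest mean CPM of them over the 4 libraries, although TPI1 was above it in SW620. It was at 1583 CPM in control and 1347 CPM in knockdown SW480 cells, and at 1035 and 1174 CPM in SW620. Both SW480 libraries were thus above both SW620 libraries. Its log2 change was -0.23 (counting SE 0.0192) in SW480 and 0.18 (counting SE 0.0224) in SW620, and over both lines -0.026 (SE 0.0905, adjusted p = 0.986 by edgeR). PFKP, the platelet form of phosphofructokinase, which commits sugar to glycolysis, had the widest split of the 9. It was at 432 and 308 CPM in the SW480 pair and at 166 and 254 CPM in the SW620 pair, or log2 -0.49 (counting SE 0.039) and 0.61 (counting SE 0.054). The muscle form PFKM did not follow it, with 176 and 194 CPM in SW480 and 116 and 168 CPM in SW620. Per kilobase, PFKP made up 56.7% of the summed phosphofructokinase transcripts in control SW480 cells and 45.8% in the knockdown, and 40.9% and 46.8% in SW620. HK2, the inducible hexokinase, was at 121 and 90.2 CPM in SW480 and at 136 and 141 CPM in SW620. Its log2 change was -0.43 (counting SE 0.0726) and 0.051 (counting SE 0.0624), so the difference stood in SW480. HK1, the hexokinase of most tissues, kept within 147 to 162 CPM. For GPI, TPI1, PFKL and ALDOC the log2 changes ran from -0.45 to 0.15 in SW480 and from 0.046 to 0.21 in SW620.

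The PFKFB enzymes make fructose 2,6-bisphosphate, which activates phosphofructokinase. PFKFB3 was at 83.5 and 64.1 CPM in control and knockdown SW480 cells and at 50.4 and 63.8 CPM in SW620 cells. The knockdown libraries of the lines thus met at nearly the same level. The log2 change was -0.38 (counting SE 0.0866) in SW480 and 0.34 (counting SE 0.1) in SW620, and over both lines -0.032 (SE 0.133, adjusted p = 0.990 by edgeR). PFKFB4 stood at 34.7 CPM in both SW480 libraries and at 42.2 and 52.3 CPM in SW620. PFKFB2 lay between 20.4 and 23.1 CPM in all 4.

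Lower glycolysis, from GAPDH to pyruvate kinase, holds 6 members, among them GAPDH, ENO1 and PKM, which had the highest CPM of the set in every library. GAPDH was at 6406 and 6638 CPM in SW480 and at 6047 and 6583 CPM in SW620. These 4 values lay close together. Its log2 change was 0.051 (counting SE 0.00901) in SW480 and 0.12 (counting SE 0.00931) in SW620, and over both lines 0.087 (SE 0.0764, adjusted p = 0.887 by edgeR). ENO1, the main enolase, was at 2840 and 2571 CPM in SW480 and at 2694 and 3190 CPM in SW620. PGK1, which makes the first ATP of the pathway, was at 599 and 560 CPM in SW480 and at 897 and 1138 CPM in SW620. Both genes were lower after knockdown in SW480 and higher in SW620, by log2 -0.14 and 0.24 for ENO1 and -0.096 and 0.34 for PGK1. PKM, pyruvate kinase, was lower in both lines, by log2 -0.16 (counting SE 0.0148) and -0.044 (counting SE 0.0144). PGAM1 and ENO2 moved by log2 -0.058 and -0.029 in SW480 and by 0.14 and 0.22 in SW620. Over all 18 enzymes of glycolysis, PFKFB genes included, 13 were lower in SW480 and 16 higher in SW620, with medians of -0.086 and 0.20 on the log2 scale.

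**Figure D2:**
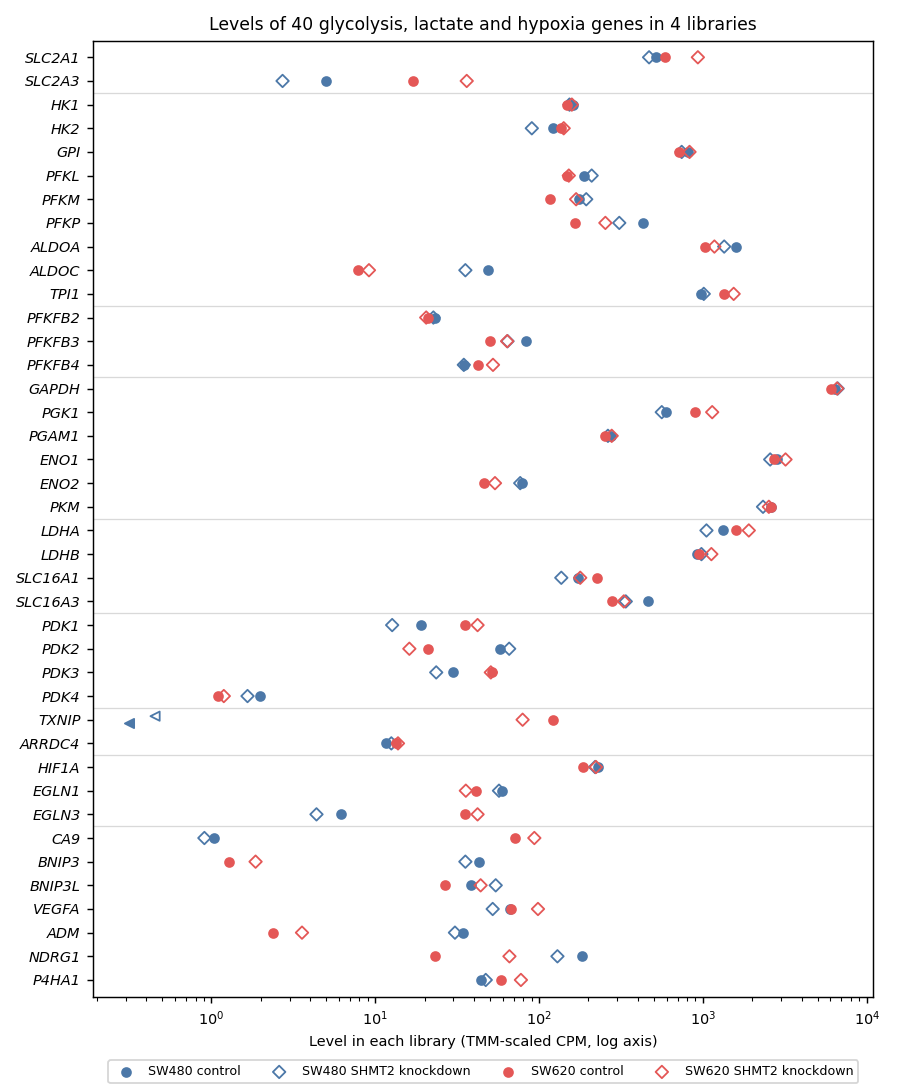
Level of each of the 40 members in each of the 4 libraries, in TMM-scaled CPM on a log axis, with filled circles for control and open diamonds for SHMT2 knockdown. TXNIP had 0 counts in SW480 and its triangles mark the level of 3 counts as an upper limit, whereas CA9, EGLN3, BNIP3 and ADM are the other genes with a wide gap between the lines.

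Lactate is made by LDHA, favored when pyruvate is reduced, and LDHB, favored in the reverse reaction. LDHA was at 1331 and 1050 CPM in SW480 and at 1581 and 1904 CPM in SW620. The lowest and the highest value were those of the knockdown libraries. The log2 change was -0.34 (counting SE 0.0215) in SW480 and 0.27 (counting SE 0.018) in SW620, and over both lines -0.036 (SE 0.0895, adjusted p = 0.982 by edgeR). LDHB was higher in both knockdown libraries, at 926 and 978 CPM in SW480 and 942 and 1125 CPM in SW620. Per kilobase, LDHB was 52.2% and 59.4% of the summed LDH transcripts in control and knockdown SW480 cells and 48.3% and 48.2% in SW620 cells. The LDHB share was highest in the knockdown SW480 library. The lengths used were 2416 bases for LDHA and 1538 for LDHB, and by CPM LDHA was the higher in every library. The exporter SLC16A3, MCT4, followed LDHA with 463 and 338 CPM in SW480 and 278 and 329 CPM in SW620. SLC16A1, MCT1, which carries lactate both ways, was lower in both lines instead. It was at 172 and 136 CPM in SW480 and at 226 and 178 CPM in SW620, or log2 -0.33 (counting SE 0.0597) and -0.34 (counting SE 0.0506). Over both lines SLC16A1 was at -0.34 (SE 0.116, adjusted p = 0.136 by edgeR), so it did not pass the adjusted threshold.

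The pyruvate dehydrogenase kinases hold pyruvate back from the mitochondrion. PDK2 was the most abundant by mean CPM, with 57.8 and 65.6 CPM in SW480 and 20.9 and 16.1 CPM in SW620. It was the member that went up in SW480 and down in SW620, by log2 0.18 (counting SE 0.0924) and -0.37 (counting SE 0.167). Over both lines the change was -0.039 (SE 0.148, adjusted p = 0.988 by edgeR). The hypoxia-induced PDK1 went the other way, with 18.9 and 12.7 CPM in SW480 and 35.0 and 42.1 CPM in SW620. PDK3 was at 29.9 and 23.5 CPM in SW480 and at 51.3 and 50.7 CPM in SW620, where it was above PDK2. Per kilobase, PDK3 made up 75.1% and 76.8% of the summed PDK transcripts in SW620, against 17.1% and 13.6% for PDK2 and 6.94% and 8.62% for PDK1. In SW480 the shares were 45.4% and 37.5% for PDK3, 49.1% and 58.4% for PDK2, and 3.90% and 2.73% for PDK1. These shares depend on the transcript lengths used, 14193 bases for PDK1, 3440 for PDK2 and 1921 for PDK3. By CPM, PDK1 was much nearer to PDK3 in SW620. PDK4 had 6 to 19 counts per library, too few to read a change.

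TXNIP was a gene of one line. Both SW480 libraries, of 9590550 and 6432779 counts, held 0 counts of it. The SW620 control held 662 and the SW620 knockdown 1066, or 121 and 79.2 CPM. Taking 3 counts per library as the limit that a count of 0 allows, 0.312 CPM in the control and 0.453 CPM in the knockdown, TXNIP was at least 389-fold higher in SW620 than in SW480 among controls and at least 175-fold higher among knockdown libraries. The log2 change in SW620 was -0.61 (counting SE 0.0714), which left 65.3% of the control level. The fit gave -0.61 (SE 0.179, adjusted p = 0.0409 by edgeR), and the DESeq2 Wald test gave -0.10 with no adjusted p. This call rests on the SW620 pair alone, since SW480 adds no counts, and the adjusted p was 0.0531 to 1.00 under the 5 alternatives that gave one. The highest came from the model without the cell line, which called 0 of 14024 genes, and the next was 0.480 by edgeR with thinned libraries. TXNIP passed the count filter only through the SW620 libraries. ARRDC4, its close relative, did not share the pattern. It was at 11.6 and 12.5 CPM in SW480 and at 13.4 and 13.8 CPM in SW620, with a change over both lines of 0.076 (SE 0.229, adjusted p = 0.986 by edgeR). The factors that act on both genes were measured in both lines. MLXIP was at 160 and 143 CPM in SW480 and 145 and 143 CPM in SW620. Its partner MLX was at 171 and 151 CPM in SW480 and at 84.5 and 86.5 CPM in SW620. MLXIPL, the related factor of liver and gut, was at 34.9 and 34.5 CPM in SW480 and at 16.9 and 12.2 CPM in SW620. None of these factors was called after knockdown.

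HIF1A, the oxygen-regulated subunit, is controlled mainly as protein, which was not measured here. Its transcript was at 230 and 220 CPM in SW480 and at 184 and 222 CPM in SW620. Only the control SW620 library lay below the others. The log2 change was -0.068 (counting SE 0.0487) in SW480 and 0.27 (counting SE 0.0527) in SW620, and over both lines 0.10 (SE 0.112, adjusted p = 0.944 by edgeR). EGLN1 was at 59.1 and 56.9 CPM in SW480 and at 40.9 and 35.7 CPM in SW620. EGLN3, which HIF itself induces, was at 6.14 and 4.37 CPM in SW480 and at 35.0 and 42.1 CPM in SW620. In SW620 its counts, 191 and 566, were the same as those of PDK1. The sister factor EPAS1, HIF2A, was at 88.3 and 72.4 CPM in SW480 but had 4 and 15 counts, 0.733 and 1.12 CPM, in SW620. ARNT, at 44.4 to 63.7 CPM, and VHL, the ligase subunit that binds hydroxylated HIF, at 66.2 to 123 CPM, were not called after knockdown.

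All 7 hypoxia targets were higher in the SW620 knockdown library, with a median log2 of 0.54. In SW480, 5 of the 7 were lower, with a median of -0.17. Both medians are the values of ADM. In SW620 ADM had 13 and 48 counts (counting SE 0.451), and its log2 was 0.21 with thinned libraries. BNIP3 had 7 and 25 counts there (log2 0.47, counting SE 0.617), so neither rise stood clear of counting error. The other targets rose by log2 0.40 to 1.49. In SW480, ADM (counting SE 0.129) and CA9, with 10 and 6 counts (counting SE 0.745), did not stand clear of it either. BNIP3L was one of the 2 targets that were higher in both lines. The counts were 366 in control and 360 in knockdown SW480, and 145 in control and 591 in knockdown SW620, or 38.1 and 54.3 CPM and 26.6 and 43.9 CPM. Each knockdown library thus lay above both controls. The log2 change was 0.51 (counting SE 0.107) in SW480 and 0.72 (counting SE 0.134) in SW620, a rise of 1.42 and 1.65 times. Over both lines it was 0.61 (SE 0.144, adjusted p = 0.00335 by edgeR), the 1 upward call among the members. The adjusted p ran from 0.00292 to 1.00 over the 5 alternatives that gave one. The highest came from the model without the cell line, which called 0 of 14024 genes, and the next was 0.185 by edgeR with thinned libraries. The study lists BNIP3L among its own upregulated genes from these samples, so the call is not independent evidence of it. The other target higher in both lines was P4HA1, a collagen prolyl hydroxylase, with 44.2 and 47.2 CPM in SW480 and 58.3 and 77.4 CPM in SW620. Its log2 in SW480, 0.093 (counting SE 0.1075), did not stand clear of counting error.

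NDRG1, a stress-response gene of epithelia, was the member with the widest split. It was at 183 and 129 CPM in SW480 and at 23.3 and 65.9 CPM in SW620. The SW480 libraries were both above the SW620 libraries, and the knockdown libraries lay closer together than the controls. The log2 change was -0.50 (counting SE 0.0601) in SW480 and 1.49 (counting SE 0.137) in SW620, and over both lines 0.34 (SE 0.133, adjusted p = 0.251 by edgeR). The control SW620 value rests on 127 counts. VEGFA, the angiogenic growth factor, started from nearly the same level in both controls, 66.4 and 67.1 CPM, and was at 52.0 CPM in knockdown SW480 and 98.3 CPM in knockdown SW620 cells. CA9, a carbonic anhydrase of the cell surface, had 10 and 6 counts in SW480 and was at 71.0 and 93.4 CPM in SW620. BNIP3, the mitophagy receptor related to BNIP3L, and ADM, the peptide adrenomedullin, were instead low in SW620, with 7 and 25 counts for BNIP3 and 13 and 48 for ADM. In SW480 BNIP3 was at 42.7 and 35.5 CPM and ADM at 34.4 and 30.6 CPM. Past 1.5-fold higher in the SW620 knockdown library were SLC2A1, SLC2A3, PFKP, BNIP3L and NDRG1, 5 members, as were 5.52% of all genes.

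**Figure D3:**
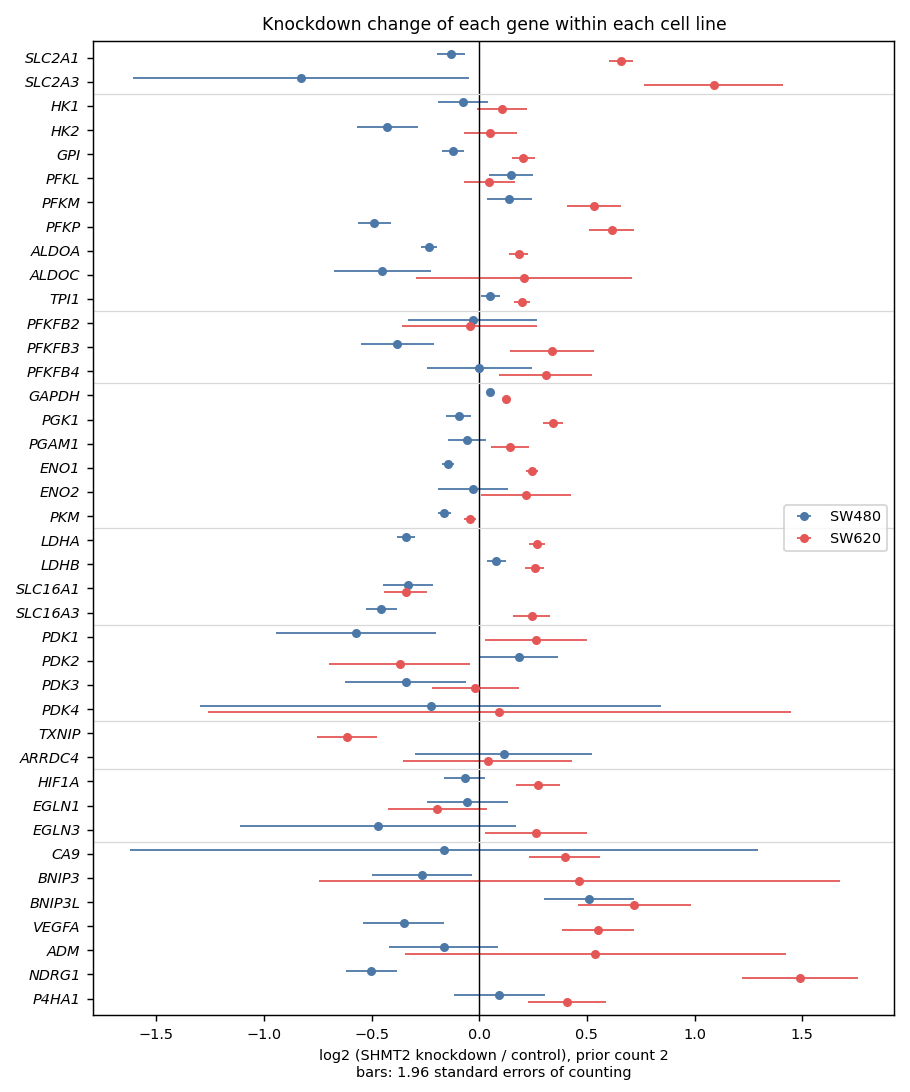
Log2 change of each member after SHMT2 knockdown in SW480 (blue) and SW620 (red), with bars of 1.96 counting SE, which cover counting error only. Blue points lie left of 0 for 29 members and red points right of 0 for 33, BNIP3L is right of 0 in both lines, SLC16A1 is left of 0 in both, and TXNIP has no SW480 point.

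Other genes of the same pathways were counted from lists written with earlier results of these data known. They held 106 genes, of which 93 were tested. After knockdown 0 were called lower, against 1.17% of all genes, and 1 higher, against 0.492%. This was DDIT4, the hypoxia-induced inhibitor of mTORC1. DDIT4 was at 121 and 117 CPM in SW480 and at 98.6 and 181 CPM in SW620. The rise thus stood in SW620, with log2 -0.045 (counting SE 0.0668) and 0.87 (counting SE 0.0687), and over both lines 0.41 (SE 0.121, adjusted p = 0.0418 by edgeR). With DESeq2's size factors the adjusted p was 0.0427, and under the other 5 alternatives it was 0.157 to 1.00, so the call was lost there. Before adjustment 7 of these 93 genes had a P of 0.05 or less, as did 1270 of all 14024 genes tested. Of 33 further hypoxia targets tested, 24 were lower in SW480 and 25 higher in SW620, and 19 did both, where 22.5% of all genes did, with medians of -0.12 and 0.28 on the log2 scale. For 18 further glucose transporters and glycolysis enzymes the medians were -0.024 and 0.0067, for 8 genes of the pentose phosphate pathway -0.048 and 0.071, and for 16 genes of pyruvate entry and lactate transport -0.025 and -0.056. They were -0.014 and 0.033 for 9 glucose-sensing factors and alpha-arrestins, and 0.022 and 0.14 for 9 HIF pathway factors.

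The lines themselves differed more than knockdown and control did. SW620 was higher than SW480 for 15 members and lower for 14 at an adjusted p under 0.05, against 32.3% and 31.3% of all genes tested. The members' shares, 37.5% and 35%, were close to these. The DESeq2 Wald test called 18 members in place of 29, and 5506 of 14024 genes in place of 8926. NDRG1 was not among its members called (adjusted p = 0.0621 by DESeq2). Beside TXNIP, the largest rises in SW620 were those of CA9, EGLN3, SLC2A3 and PDK1, with log2 differences of 6.33 (SE 0.235), 2.84 (SE 0.208), 2.65 (SE 0.242) and 1.29 (SE 0.17). These amount to 80.4-, 7.18-, 6.27- and 2.45-fold. The highest adjusted p among these 4 was 2.03e-13 by edgeR, for PDK1. The largest falls were those of BNIP3, ADM, ALDOC, NDRG1 and PDK2, which were 22.6-, 10.2-, 4.71-, 3.59- and 3.41-fold higher in SW480. The adjusted p was at most 1.52e-30 by edgeR, for PDK2. CA9 passed the count filter only through SW620 and BNIP3 only through SW480, so their calls and folds follow in part from how they were kept. The hypoxia targets therefore did not follow one order of the lines, since CA9 and P4HA1 were higher in SW620 and BNIP3, BNIP3L, ADM and NDRG1 in SW480. VEGFA was also called higher in SW620, but its controls were at 66.4 CPM in SW480 and 67.1 CPM in SW620. Its difference stood in the knockdown libraries, at 52.0 CPM in SW480 and 98.3 CPM in SW620. With 1 culture of each line per condition, the SE of these differences holds the spread between 2 pairs and not the spread between cultures of a line.

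**Figure D4:**
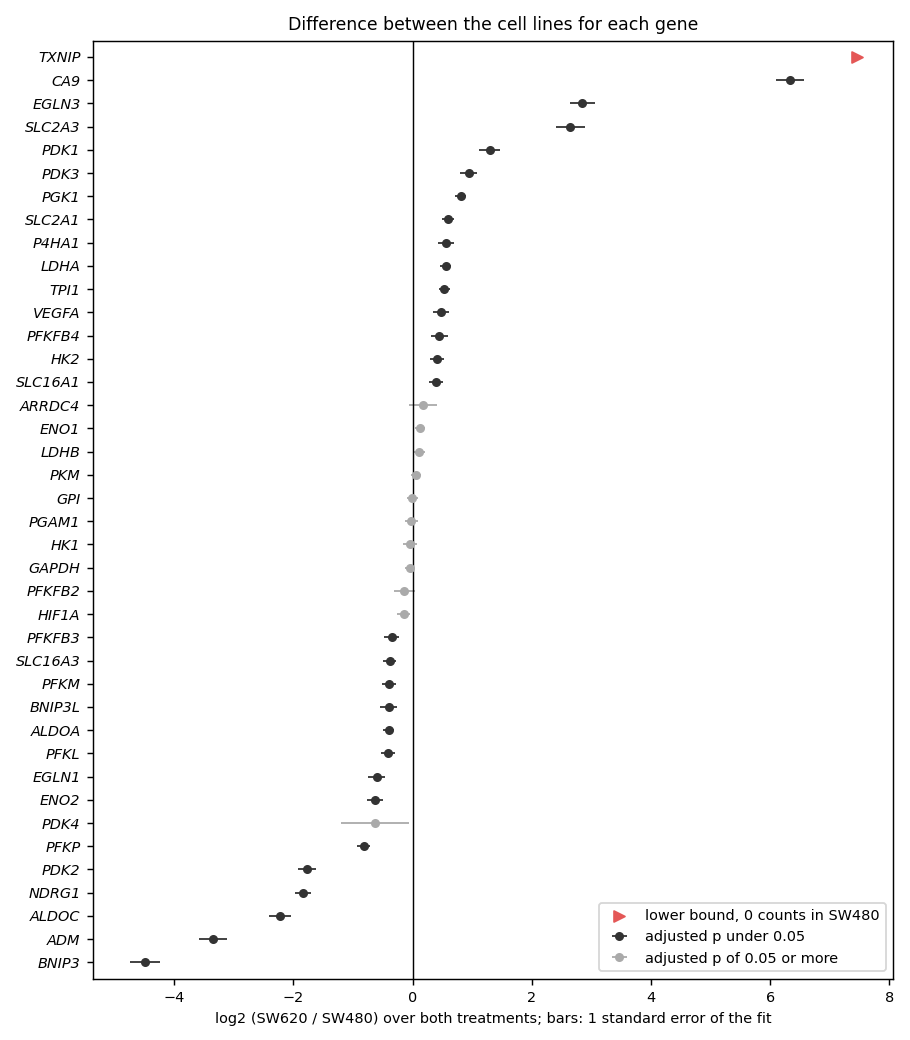
Difference between the lines for each member, as log2 of SW620 over SW480 over both treatments, with bars of 1 SE of the fit. Dark points have an adjusted p under 0.05, the triangle is the lower bound for TXNIP among knockdown libraries, and the range runs from -4.50 for BNIP3 to 6.33 for CA9 among genes with counts in both lines.

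Per kilobase of the longest annotated coding transcript, GAPDH was the highest member, at 3225 to 3540 RPKM, followed by ENO1 at 1096 to 1360 RPKM and PKM at 856 to 958 RPKM. ALDOA came next in SW480, at 947 and 806 RPKM, and TPI1 in SW620, at 761 and 873 RPKM, so that these 2 genes changed places between the lines. Processed copies are annotated for several members, 62 for GAPDH, 39 for BNIP3, 13 for PGAM1 and 6 for LDHA, and reads of such copies may have been split or dropped in counting. Exons of a gene on the opposite strand overlap 17 of the 40 members, among them HIF1A with HIF1A-AS1, PFKM with SENP1 and SLC16A3 with CSNK1D. Their reads cannot be told apart if strand was not used.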

How the data were processed

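RNA was measured by sequencing in 4 libraries, 1 of SHMT2-knockdown and 1 of control cells for each of SW480 and SW620. As deposited by the authors, the values are raw read counts, 1 row a gene symbol, not normalized. The submitters' processing notes name Bowtie 0.12.2 and hg18; the counting program, the annotation and the use of strand were not given in the sources used here. In 28 rows with 0.217% of all counts, symbols had become dates. The study's text names both RNA-seq and a microarray, and the labels describe TruSeq libraries.

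Genes passed the filter with 10 counts or more in 2 libraries. Scaling was by TMM and the model was fitted in edgeR 4.0.16 (R 4.3.3, quasi-likelihood test, two-sided, terms for cell line and treatment, 1 residual degree of freedom), so the P values lean on a dispersion shared across genes. The calculation was checked on simulated data. The labels give the cell line, which pairs the libraries, and deviations of paired libraries had a correlation of 0.961 across genes. Nothing states separate cultures, so P values measure the spread between these libraries. Alternatives were DESeq2 1.42.0, other filters, scalings and prior counts, thinned libraries and no cell line term. RPKM used the longest coding transcript in GENCODE 29, and promoters came from RefSeq on GRCh38.p14, builds other than the authors'.

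The members and lists were chosen with earlier results of these data known. Full statistics are given for members called, TXNIP, ARRDC4, HIF1A, the most abundant member of each role, and members past a log2 of 0.5 with the same sign in both lines; for the lines, for the 5 largest rises and 5 largest falls. Other members are named by value, and those picked for their split between the lines were chosen after their values were seen.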

Additional observations from a re-analysis of the deposited data

Results flagged for a closer look

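In 14 members the knockdown library and its control differed by more than 1.96 counting SE in both lines, in opposite directions. Of all genes tested, 2.5% were lower in SW480 and higher in SW620 past this limit, and 1.3% the other way. These shares are not like for like, since counting SE shrinks as counts rise and abundant genes pass at smaller changes. As the log2 change in SW620 minus that in SW480, 13 of the 14 members were positive. Among transporters, the difference was 1.92 for SLC2A3, 0.79 for SLC2A1 and 0.70 for SLC16A3. Among enzymes of glycolysis and lactate, it was 1.10 for PFKP, 0.72 for PFKFB3, 0.61 for LDHA, 0.44 for PGK1, 0.42 for ALDOA, 0.39 for ENO1 and 0.32 for GPI. For PDK1 it was 0.84, and for the hypoxia targets NDRG1 and VEGFA it was 1.99 and 0.90. PDK2 had the opposite sign, at -0.55. The difference between the lines was not tested, because each line and condition is 1 library. The ratio of knockdown to control depth was 0.671 in SW480 and 2.49 in SW620. The part of this in the pattern was not tested, because thinning the libraries keeps each gene's expected share of the counts.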

How the results depend on the processing

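The 2 calls after knockdown depended on the settings. Without the replicate block, that is without the cell line that pairs the libraries, 0 members and 0 of the other pathway genes were called, and 0 of 14024 genes were called at all. A filter of 50 counts, the DESeq2 Wald test and thinning each gave 0 and 0 as well, with 69, 28 and 26 genes called in all. An unadjusted P of 0.05 or less was reached by 4, 2 and 4 members. It was reached by 1016 of 11473, 241 of 14024 and 1014 of 13507 genes. DESeq2 gave no adjusted p for 20 members, TXNIP and BNIP3L among them. With no filter 1 member, BNIP3L, and 0 other pathway genes were called, and with DESeq2's size factors 1 member, BNIP3L, and 1 other gene, DDIT4. Of all genes, 183 of 20349 and 217 of 14024 were called there. At the unadjusted limit of the main fit 8 members passed, as did 1270 of 14024 genes. Without the block the log2 change turned to 0.021 for LDHA, -0.084 for NDRG1 and 0.050 for PDK2, and with thinning it turned to 0.013 for PFKFB3; none of these was called. The 29 differences between the lines became 18 by the DESeq2 Wald test, which called 5506 of 14024 genes, and 26 to 29 otherwise. By DESeq2 NDRG1 was at an adjusted p of 0.0621.

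The directions within the lines moved little. Over 3 other scalings 27 to 29 members were lower in SW480 and 33 to 34 higher in SW620, and no scaling shifted the log2 values of all genes by more than 0.0414. Leaving out the SW620 pair took TXNIP to 0, since SW480 has no counts of it, and BNIP3L was 0.51 and 0.72 with either line alone. Depth limits PDK4, and CA9, BNIP3, ADM and SLC2A3 in the line where each is low.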

Other observations

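The absence of TXNIP counts in SW480 was set beside its neighbours in RefSeq order on chromosome 1, which were chosen after the values were seen. POLR3GL had 115 and 97 counts in control and knockdown SW480 cells and 61 and 140 in SW620. LIX1L had 192 and 161 counts in SW480, and RBM8A 1194 and 809. On the other side, HFE2 had 0 counts in all 4 libraries, whereas NBPF10 had 54 and 45 counts in SW480 and 11 and 56 in SW620. Counts in SW480 thus stood for POLR3GL, LIX1L and RBM8A on one side, and on the other for NBPF10 but not for HFE2, the nearest gene there. Why TXNIP had 0 counts in SW480 was not tested.

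EPAS1 showed the reverse of TXNIP between the lines, with 848 and 480 counts in SW480 and 4 and 15 in SW620, and a log2 difference of -6.26 for SW620 over SW480. Among the further hypoxia targets, those with wide splits after knockdown included BHLHE40, a transcriptional repressor, at 46.3 and 29.7 CPM in SW480 and 61.8 and 95.7 CPM in SW620, and STC2, a secreted glycoprotein, at 97.5 and 77.8 CPM in SW480 and 86.9 and 127 CPM in SW620. Neither was called over both lines. GYS1, glycogen synthase, lay the other way, at 105 and 128 CPM in SW480 and 62.0 and 51.6 CPM in SW620. These 3 genes were picked after their values were seen.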
